A study of Mus musculus with 3 samples.

Results

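The 10 genes described here are S100a4, S100a6, S100a10, S100a11, Anxa2, Lgals1, Lgals3, Capg, Vim and Neb. They encode small proteins of the S100 family, a membrane-binding annexin, galectins and proteins of the cytoskeleton. They are 10 of the 32285 genes counted in a single-cell RNA-seq study of follicular T cells of immunised mice. Their raw UMIs, counts of distinct captured RNA molecules, were summed in the cells that the authors annotated, by library, by class (Tfh or Tfr) and by the authors' subcluster number. The genes were chosen by these summed UMIs, with earlier results of these data known, so all their values are descriptions and none carries a test.

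The BKO library came from mice labelled as a Siglec-G B-cell knockout, which lack in B cells an inhibitory receptor that binds sialic acid, and the WT samples came from wild-type mice. All mice were immunised with ovalbumin carried by liposomes (OVA-liposome in the labels), and T follicular helper cells (Tfh), which help B cells, and their regulatory counterparts (Tfr) were sorted from spleen at day 14. The labels do not state the promoter that drives the knockout, the age of the mice or the number pooled per library. The knockout is in B cells, so no T cell gene checks the label.

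BKO held 6389 Tfh and 2044 Tfr cells with a median of 6431 UMIs, WT run 1 held 3727 and 1416 cells with 4584 UMIs, and WT run 2 held 3668 and 1449 cells with 7527 UMIs. All 5554 barcodes of WT run 1 were among the 5721 of WT run 2, with UMI totals correlated at r = 0.997 over the shared barcodes. The WT samples are therefore treated as runs of the same cells, and 1 library stands against 1. The spread between WT runs says nothing of the spread between animals, and no p-value is given. BKO cells shared 11 barcodes with WT run 1 and 13 with WT run 2. BKO and WT run 1 are labelled batch 1 and WT run 2 batch 2. Because both WT runs hold the same cells, this label does not tell captures or animals apart. Foxp3, the defining factor of regulatory T cells, had a UMI in each Tfr cell of every library, so its level is no check of the class, and in 0.908% of BKO, 0.402% of WT run 1 and 9.95% of WT run 2 Tfh cells. It stood at 349, 356 and 331 UMIs per 1000000 UMIs (CPM) in BKO, WT run 1 and WT run 2 Tfr cells. All 9 Tfh markers were detected in both classes in each library.

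S100 proteins are small, and most are calcium sensors that change shape when calcium rises and then bind target proteins. S100a10 pairs with annexin A2 at the inner face of membranes, S100a4 binds non-muscle myosin and is known for its part in cell motility, and galectins bind sugars that carry galactose. In T cells these genes are commonly listed with effector and memory states and with cells that migrate through tissue, while cells held in the germinal centre usually have low levels of them.

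The S100 members lie on the plus strand of mouse chromosome 3 in GRCm38 (mm10), in neighbouring pairs. S100a4 spans chr3:90603771-90606045 and S100a6 chr3:90612882-90624181, 6.84 kb apart with S100a5 between them, which was at 1.10 CPM or less in each library and class. S100a11 spans chr3:93520488-93526287 and S100a10 chr3:93555080-93564643, 28.8 kb apart, and 2896 kb separate the pairs. Upstream sequence is shown for S100a4 and S100a6, the neighbours that had like patterns over subclusters and unlike differences between BKO and WT, and for S100a11 and Anxa2, which were both higher in BKO over most subclusters. The 250 bases before each start as RefSeq gives it on GRCm38.p6, plus strand, lie at chr3:90603520-90603769, chr3:90612644-90612893, chr3:93520246-93520495 and chr9:69453433-69453682. Capitals mark the letters TGANTCA, the motif of AP-1 factors, and CCACCC, the box of Klf factors, searched on both strands, where GGGTGG is the second motif on the minus strand.
S100a4: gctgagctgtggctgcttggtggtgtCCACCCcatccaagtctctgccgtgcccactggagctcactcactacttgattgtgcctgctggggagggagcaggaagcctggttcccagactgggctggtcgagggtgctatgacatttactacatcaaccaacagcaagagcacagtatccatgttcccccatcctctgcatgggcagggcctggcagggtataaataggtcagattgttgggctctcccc
S100a6: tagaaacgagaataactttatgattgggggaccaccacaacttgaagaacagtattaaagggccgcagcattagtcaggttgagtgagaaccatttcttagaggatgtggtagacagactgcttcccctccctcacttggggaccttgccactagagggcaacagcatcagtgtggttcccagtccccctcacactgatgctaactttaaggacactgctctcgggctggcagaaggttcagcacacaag
S100a11: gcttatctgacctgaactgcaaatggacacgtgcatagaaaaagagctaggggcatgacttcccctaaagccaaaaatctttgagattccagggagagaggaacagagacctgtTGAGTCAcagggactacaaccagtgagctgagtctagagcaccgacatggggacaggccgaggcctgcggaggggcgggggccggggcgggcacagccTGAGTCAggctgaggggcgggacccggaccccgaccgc
Anxa2: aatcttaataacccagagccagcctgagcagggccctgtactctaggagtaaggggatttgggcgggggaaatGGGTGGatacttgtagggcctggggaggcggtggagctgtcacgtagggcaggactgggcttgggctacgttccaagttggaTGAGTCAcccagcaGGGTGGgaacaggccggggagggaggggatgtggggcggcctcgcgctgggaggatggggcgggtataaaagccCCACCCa
Of the 10 members, 7 had an entry in the promoter table. TGANTCA stood in 2 of these 7, with 2 matches in S100a11 and 1 in Anxa2, and it stood in 6.75% of the 32851 mouse promoters of the same length. CCACCC stood in 4 of the 7 (S100a4, Anxa2, Capg and Vim) and in 28.1% of all promoters. No matches overlapped. These are matches of letters in a window and say nothing of which factor binds.

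Levels in CPM are a gene's UMIs per 1000000 of all UMIs summed over the cells of a library and class. Ratios are log2 of BKO over WT, taken as the mean of both runs, with 0.5 CPM added to each. A call, higher or lower, needed a mean of 20 CPM or more over all samples and BKO at least 1.5 times beyond both WT runs. Intervals are exact Poisson intervals at 95% and cover counting error only.

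In Tfr cells the members stood higher in BKO, led by Neb and Capg, and in Tfh cells S100a4 alone among the members was called, and lower. Neb, which encodes nebulin, a giant actin-binding protein known from skeletal muscle (minus strand of chromosome 2, 52136647 to 52378474), was found at 87.9 CPM in BKO Tfr cells (interval 83.3 to 92.8), against 37.8 CPM (33.7 to 42.2) in WT run 1 and 36.1 CPM (33.0 to 39.5) in WT run 2. BKO was above both runs by more than the counting intervals, 2.36-fold over their mean. Capg caps the fast-growing ends of actin filaments (chromosome 6, 72544391 to 72562983). It stood at 317 CPM (308 to 326) in BKO Tfr cells, against 211 CPM (201 to 221) and 184 CPM (177 to 191) in the WT runs, 1.60-fold higher. Its smaller ratio, over WT run 1, was 1.502, just inside the rule, and that of S100a11 was 1.499, just outside.

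Of the 9 members past the minimum in Tfr cells, 2 were called higher and 0 lower, while 0.887% of 6539 genes were called higher and 2.4% lower. Higher calls were 27.0% of all calls in Tfr and 13.9% in Tfh cells, and 58.4% and 43.2% with library sizes scaled by TMM. All 10 members had a log2 ratio above 0 in Tfr cells. The median over all 10 was 0.48, and that over all genes tested was -0.09. S100a11 stood at 949 CPM in BKO Tfr cells, against 621 and 633 CPM in the WT runs (log2 ratio 0.60), and S100a6 at 1142 CPM, against 789 and 738 CPM (0.58). These calcium-binding genes came next after Neb and Capg. Lgals3, which encodes a galectin that cross-links surface sugars and was under the minimum, stood at 17.5 CPM in BKO Tfr cells, against 13.1 and 11.4 CPM (0.50). Anxa2, encoding the membrane-binding partner of S100a10, stood at 101 CPM, against 75.7 and 72.1 CPM (0.45). Lgals1, which encodes a small secreted galectin, stood at 487 CPM, against 370 and 365 CPM (0.41). Differences were smaller for S100a10 at 1185 CPM, against 1088 and 982 CPM (0.20), S100a4 at 646 CPM, against 602 and 561 CPM (0.15), and Vim, the intermediate filament protein vimentin, at 134 CPM, against 120 and 122 CPM (0.15).

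In Tfh cells S100a4 stood at 321 CPM in BKO (316 to 326), against 575 CPM (565 to 586) in WT run 1 and 546 CPM (538 to 555) in WT run 2, a log2 ratio of -0.80, or 1.75-fold lower. It was the 1 of 8 members past the minimum that was called lower, and 0 were called higher, while 2.45% of 6559 genes were called lower and 0.396% higher. S100a4 in Tfr cells went the other way, with a difference between the classes' log2 ratios of 0.96 that was not tested. S100a11 (1045 CPM in BKO, against 733 and 754 CPM) and Anxa2 (119 CPM, against 85.0 and 83.6 CPM) both had a log2 ratio of 0.49 in Tfh cells and were not called. Capg stood at 81.4 CPM in BKO Tfh cells, against 74.2 and 65.8 CPM (0.22), and S100a6 at 836 CPM, against 728 and 713 CPM (0.21). The next members stood close to WT. Lgals1 stood at 384 CPM in BKO, against 363 and 341 CPM (0.12), Vim at 113 CPM, against 107 and 107 CPM (0.08), and S100a10 at 789 CPM, against 788 and 722 CPM (0.06). Lgals3 at 11.6 CPM, against 14.7 and 13.9 CPM (-0.29), and Neb at 8.58 CPM, against 12.9 and 12.7 CPM (-0.55), were under the minimum. The median over all 10 members was 0.10, beside -0.10 over all genes tested.

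**Figure D1:**
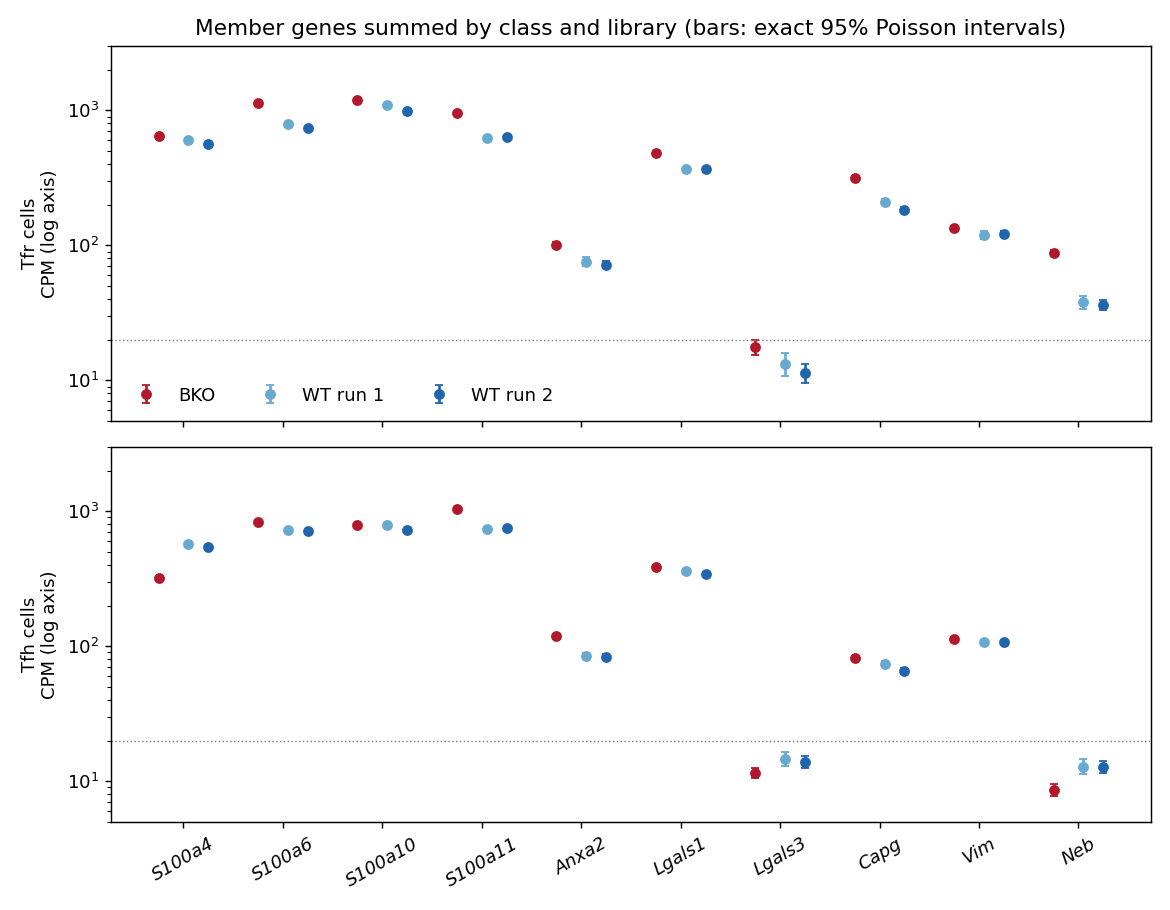
Level in CPM (log axis) of each member summed over Tfr cells (upper panel) and Tfh cells (lower panel), with BKO, WT run 1 and WT run 2 as points from left to right, bars for exact 95% Poisson intervals and a dotted line at 20 CPM. S100a4 lies below WT in Tfh cells (321 CPM in BKO, against 575 and 546 CPM), while Neb in Tfr cells lies above it (87.9 CPM, against 37.8 and 36.1 CPM).

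Within each library Neb and Capg were also the members that set Tfr apart from Tfh cells. Neb was higher in Tfr than in Tfh cells by a log2 of 3.28 in BKO, 1.52 in WT run 1 and 1.47 in WT run 2, and Capg by 1.95, 1.4997 and 1.48. These 2 members were called in all 3 samples, while 2.35% of 6552 genes were called higher in Tfr cells and 1.86% lower. Neb stood under 20 CPM in Tfh cells in each library, at 8.58, 12.9 and 12.7 CPM, and passed the minimum through Tfr cells. Capg is also among the markers used here for Tfr cells, so its direction is no independent finding. S100a10 was higher in Tfr cells by 0.59 in BKO, 0.47 in WT run 1 and 0.44 in WT run 2. S100a11 (-0.14, -0.24 and -0.25) and Anxa2 (-0.22, -0.17 and -0.21) were lower in Tfr than in Tfh cells in each library. S100a4 was level between the classes in WT, at 0.06 and 0.04, and stood 1.01 higher in Tfr cells in BKO.

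The members were concentrated in few subclusters. Because the subclusters were made from all genes of these cells, members included, these levels describe the clusters and test nothing. Among subclusters with at least 50 cells in each sample, 5 of Tfr and 7 of Tfh cells, Tfr subcluster 1 had the highest level of all 10 members in each library, although for Anxa2 in BKO the interval (117 CPM, 108 to 126) overlapped that of Tfr subcluster 3 (112 CPM, 101 to 125). S100a4 stood there at 1405 CPM in BKO, 1780 CPM in WT run 1 and 1655 CPM in WT run 2, and the next Tfr subcluster at 410, 387 and 376 CPM. S100a6 stood at 2275, 2299 and 2124 CPM in that subcluster, Neb at 215, 167 and 154 CPM, and Capg at 588, 480 and 400 CPM. Prdm1, which encodes the effector cell factor Blimp-1, stood there at 132, 94.3 and 89.2 CPM, against 13.1, 7.55 and 8.17 CPM in Tfr subcluster 0, and Bcl6, the factor that drives follicular T cells, at 35.7, 50.8 and 51.2 CPM, against 123, 121 and 134 CPM. Cxcr5, the receptor that guides cells into follicles, stood at 86.5, 87.6 and 91.3 CPM there, against 175, 132 and 125 CPM. Tfr subcluster 0 had the lowest S100a6, Capg and Lgals1 in each library. For Neb, under 20 CPM in both, Tfr subclusters 0 and 2 stood at 10.5 and 10.9 CPM in BKO and 10.6 and 10.8 CPM in WT run 1. In WT run 2 they stood at 11.1 and 7.56 CPM, the other order, so it is not resolved. For S100a4 the WT intervals of Tfr subclusters 2 and 4 overlapped, so their order is not resolved.

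Among the 7 Tfh subclusters, number 4 had the highest level of 8 members in each library, the exceptions being Capg and Neb. S100a6 stood there at 3214 CPM in BKO, against 2150 and 2149 CPM in the WT runs, S100a4 at 1603 CPM, against 2122 and 1971 CPM, and Vim at 475 CPM, against 383 and 393 CPM. Klf2, which keeps T cells in circulation and opposes the Tfh state, stood at 643, 515 and 466 CPM in Tfh subcluster 4 and at 19.9, 14.0 and 16.6 CPM in Tfh subcluster 0. Bcl6 stood at 41.1, 49.3 and 51.9 CPM and at 255, 216 and 218 CPM there. Capg was highest in Tfh subcluster 1 in each library, at 187, 150 and 135 CPM. Neb was highest in that subcluster too in BKO and WT run 1, at 38.2 and 22.9 CPM, while in WT run 2 Tfh subcluster 7 stood at 27.1 CPM from 13 UMIs (14.4 to 46.3) and Tfh subcluster 1 at 20.4 CPM (17.2 to 24.1), an order that is not resolved.

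**Figure D2:**
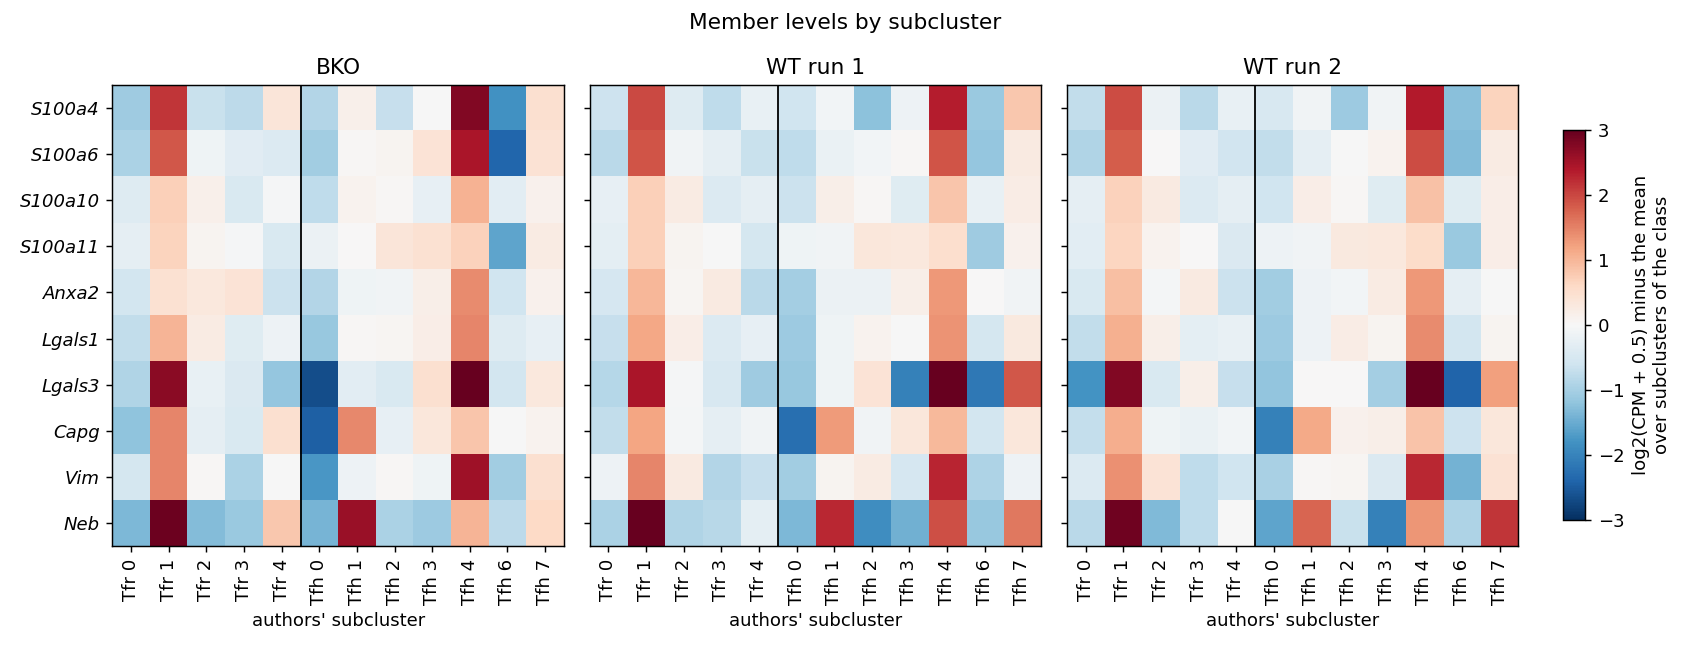
Level of each member (rows) in the authors' subclusters (columns, Tfr left of the line and Tfh right of it) for BKO, WT run 1 and WT run 2, as log2(CPM + 0.5) minus the member's mean over the subclusters of the class (colour, red above and blue below). Tfr 1 and Tfh 4 are red for S100a4, S100a6 and Vim in each panel, and Neb and Capg are red in Tfh 1.

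Small subclusters also carried high levels. Tfh subcluster 5, in which the chemokine gene Ccl5 stood at 22037 CPM in WT run 1 and 20144 CPM in WT run 2, held 11 BKO cells, against 359 and 363 WT cells. S100a4 stood there at 1637 CPM in BKO, against 1501 and 1476 CPM, and Lgals3 at 147 CPM, against 67.02 and 65.2 CPM. This subcluster held 24.7% and 26.7% of the S100a4 UMIs of WT Tfh cells and 1.03% of those of BKO. Tfh subcluster 8 held 46 BKO cells, against 64 and 53 WT cells. Mki67, a marker of dividing cells, stood there at 406 CPM in BKO, against 927 and 883 CPM. Lgals1 stood there at 1911 CPM in BKO, against 1460 and 1259 CPM, and Vim at 747 CPM, against 494 and 519 CPM. Tfr subcluster 6 held 0 BKO cells and 27 and 20 WT cells, with S100a4 at 2188 and 2282 CPM and Lgals3 at 108 and 102 CPM.

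The shares of the subclusters differed between BKO and WT. Tfr subcluster 1 held 36.3% of BKO Tfr cells, against 16.2% and 17.1% of WT Tfr cells, and with them 79.1% of the S100a4 UMIs of BKO Tfr cells, against 48.3% and 51.0%. For Neb the share of UMIs in Tfr subcluster 1 was 88.7% in BKO, against 72.3% and 73.6%. With the BKO subclusters weighted by the WT shares, the log2 ratio of Neb in Tfr cells was 0.40 in place of 1.24, that of Capg 0.13 in place of 0.68 and that of S100a6 0.02 in place of 0.58. No member was called in either class under this weighting. Subclusters of at least 10 cells in each sample were used, 6 of Tfr and 9 of Tfh cells, so Tfr subcluster 6 was left out of WT. Under the weighting S100a11 was at 0.39 in place of 0.60, and Anxa2 at 0.24 in place of 0.45. S100a4 in Tfr cells was at -0.43 in place of 0.15, and Vim at -0.29 in place of 0.15. S100a10 was at -0.04 in place of 0.20 and Lgals3, under the minimum, at -0.0096 in place of 0.50. Of these 4 members, S100a4 and Vim then lay below both WT runs in Tfr cells. S100a10 (1005 CPM, against 1085 and 981 CPM) and Lgals3 (10.1 CPM, against 10.5 and 9.77 CPM) lay between the WT runs. With Tfr subcluster 1 left out in place of the weighting, the median over all 10 members in Tfr cells was 0.10 in place of 0.48.

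In Tfh cells the same weighting gave S100a4 a ratio of -0.36 in place of -0.80. That value rests on the 11 BKO cells of Tfh subcluster 5, which hold 0.203% of BKO Tfh UMIs and were raised to the WT shares of 9.48% and 9.90%. Over subclusters of at least 50 cells, a setting chosen after seeing the data, the ratio was -0.59. Lgals3, under the minimum, was at 0.75 (0.27 over those subclusters) in place of -0.29, and Neb, also under it, at -0.15 (0.58) in place of -0.55. Without Tfh subcluster 5 the ratio of S100a4 was -0.54, which is not called. Nkg7, a gene of cytotoxic granules, led the CD8 T and NK markers, of which the summed level was 36.6 CPM in BKO Tfh cells, against 259 and 239 CPM in WT, with Cd8a and Ncr1 at 0 in WT run 1 and Ncr1 at 0 in BKO. Beyond the value without subcluster 5, the part of such cells in the S100a4 result was not tested.

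**Figure D3:**
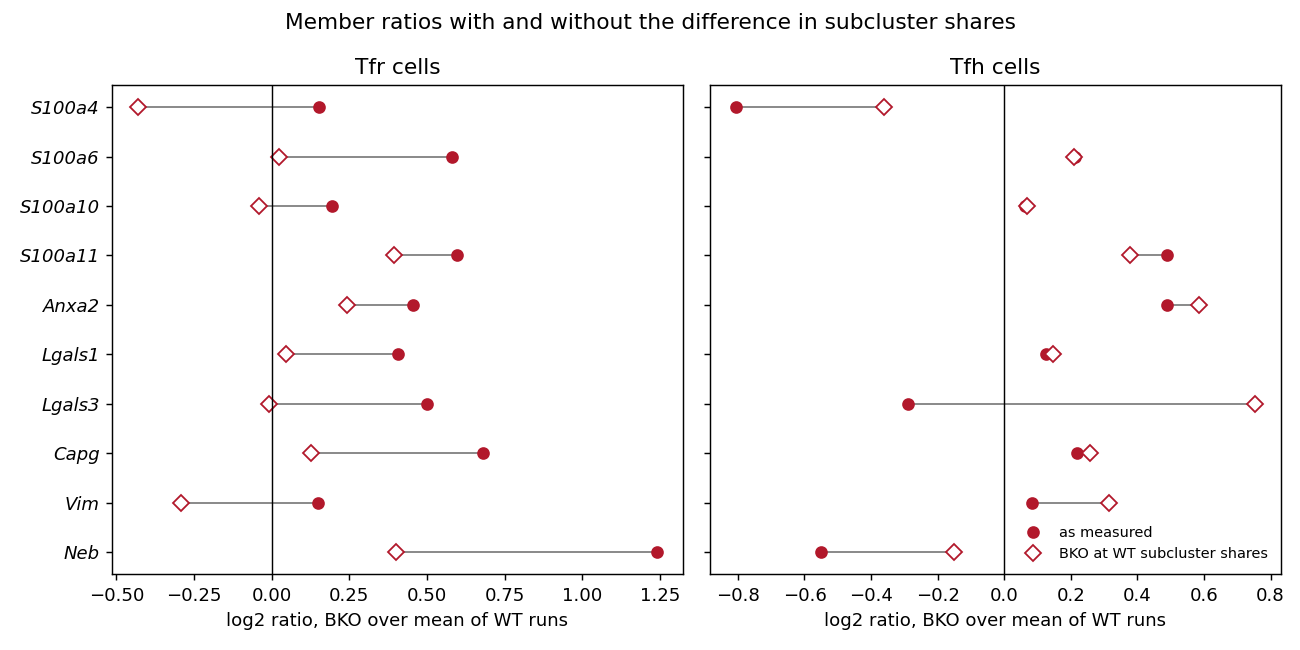
Log2 ratio of BKO over the mean of the WT runs for each member in Tfr cells (left) and Tfh cells (right), as measured (filled circles) and with the BKO subclusters weighted by the WT shares of UMIs (open diamonds), joined by a line. In Tfr cells Neb lies at 0.40 in place of 1.24 and S100a4 at -0.43 in place of 0.15, while S100a11 stays above 0 in both classes.

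Inside the 12 subclusters S100a4 stood lower in BKO in 11, S100a11 higher in 11 and Anxa2 higher in 10. The counting intervals of the ratios to both WT runs lay clear of 1 in 11 subclusters for S100a4 and in 11 for S100a11, but in 7 for Anxa2. There were 12 calls over members and subclusters, 4 higher and 8 lower, and 6 of the 8 were S100a4. The log2 ratio of S100a4 was below 0 in 11 of the 12 subclusters, with a median of -0.57 and a range of -1.39 to 0.12. In Tfh subcluster 0 it stood at 127 CPM in BKO (120 to 135), against 275 CPM (260 to 290) and 271 CPM (260 to 282) in the WT runs. In Tfr subcluster 0 it stood at 151 CPM (136 to 168), against 292 CPM (274 to 311) and 256 CPM (243 to 270). It was called lower in these and in Tfh subclusters 3, 6 and 7 and Tfr subcluster 2, and the exception to the direction was Tfr subcluster 4, at 410 CPM in BKO, against 387 and 367 CPM. In each subcluster but Tfr 4, BKO lay below both WT runs, in those of high level (Tfr 1 and Tfh 4) as in those of low level.

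S100a6, beside S100a4 on the chromosome, did not share this. Its log2 ratio was above 0 in 7 of the 12 subclusters, with a median of 0.12, and it was called once, lower, in Tfh subcluster 6 (114 CPM in BKO, against 262 and 225 CPM). In Tfh subcluster 4 the neighbours went opposite ways, S100a6 at 0.58 and S100a4 at -0.35. S100a11 was above 0 in 11 of 12, with a median of 0.38 and a highest value of 0.47, so that it was called in none, and Tfh subcluster 6 was the exception, at -0.18. S100a10 had a median of -0.0028 (0.12 with TMM sizes) and stayed between -0.12 and 0.25. Anxa2 was above 0 in 10 of 12, with a median of 0.44 and the exceptions Tfr 1 (-0.20) and Tfh 6 (-0.04), although its partner S100a10 was level. 

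**Figure D4:**
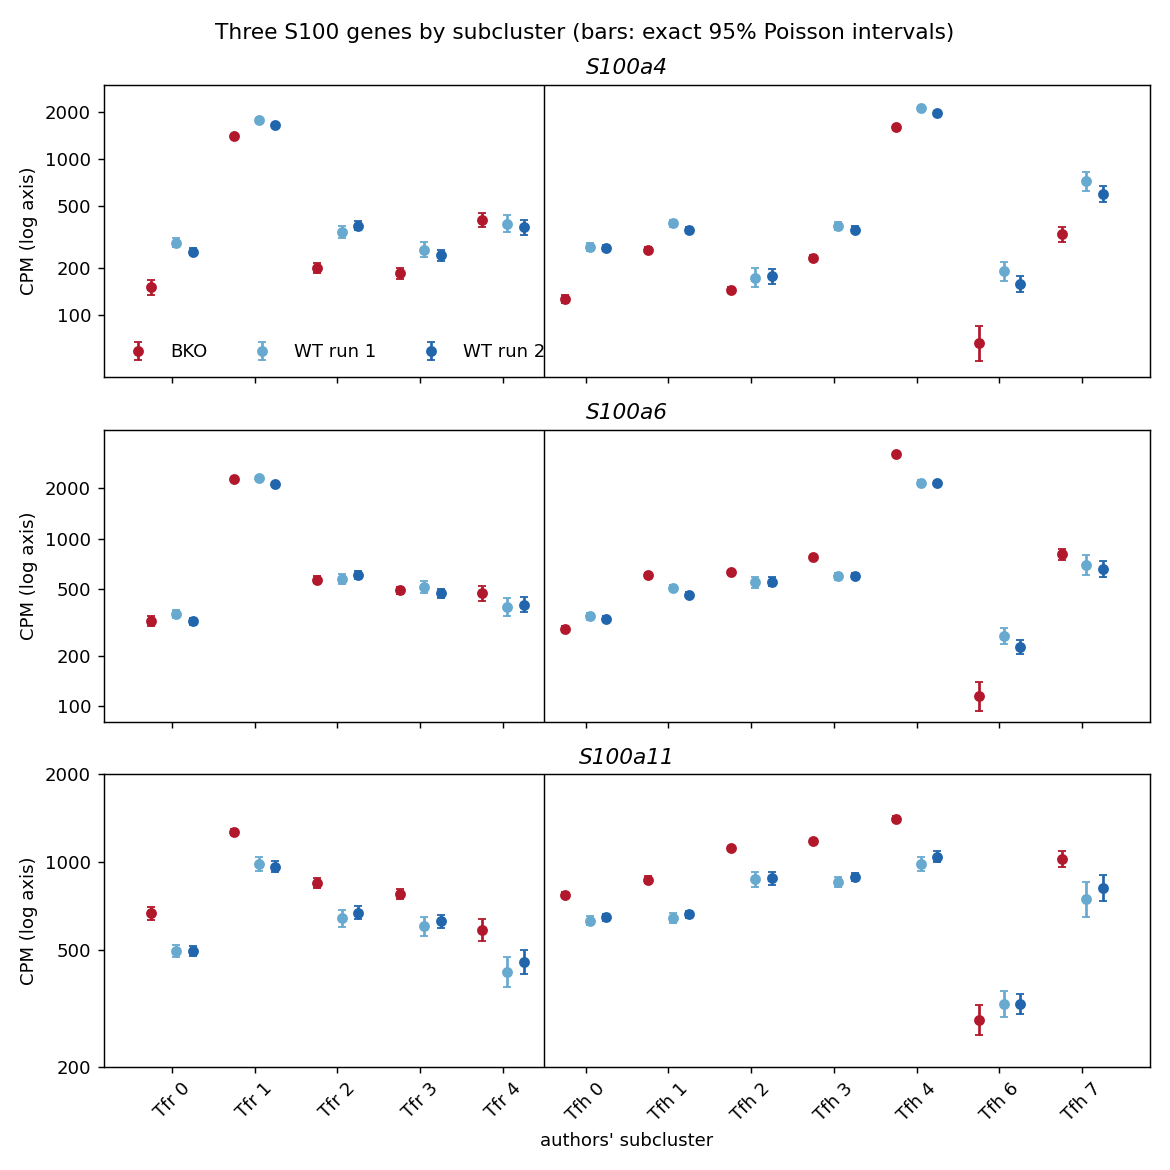
Level in CPM (log axis) of S100a4, S100a6 and S100a11 in each subcluster (Tfr left of the line), with BKO, WT run 1 and WT run 2 as points from left to right and bars for exact 95% Poisson intervals. BKO lies below both WT runs for S100a4 in 11 of 12 subclusters and above them for S100a11 in 11 of 12.

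Neb and Capg were each called higher in 2 subclusters. Neb stood at 38.2 CPM in BKO Tfh subcluster 1 (33.5 to 43.5), against 22.9 CPM (18.7 to 27.9) and 20.4 CPM (17.2 to 24.1). In Tfr subcluster 4 it stood at 48.5 CPM, against 16.9 and 19.6 CPM, from 41 UMIs in BKO, against 11 and 18, and it passed the minimum there through BKO. In Tfr subcluster 1, where most of its UMIs lay, its ratio was 0.42 and not called. Capg was called in Tfh subcluster 6 (68.5 CPM, against 42.0 and 39.5 CPM) and Tfr subcluster 4 (297 CPM, against 197 and 177 CPM), and had a ratio of 0.42 in Tfr subcluster 1. Vim was called lower in Tfh subcluster 0 (24.1 CPM, against 37.7 and 41.4 CPM), and in Tfr cells it was below 0 in 4 of the 5 subclusters. Lgals1 was not called in any subcluster, with ratios between -0.36 and 0.25. Lgals3 passed the minimum in Tfr 1 (0.0044) and Tfh 4 (0.19) and was called in neither.

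These counts stand beside the share of all genes called in the same subcluster. In Tfh subclusters 0, 1, 2, 3, 4, 6 and 7 that share was 0.5%, 1.31%, 1.91%, 2.03%, 4.33%, 6.9% and 10.3% lower and 0.5%, 0.725%, 0.434%, 0.23%, 0.586%, 1.95% and 3.46% higher. In Tfr subclusters 0 to 4 it was 1.19%, 3.79%, 5.98%, 2.14% and 7.79% lower and 0.603%, 1.01%, 1.3%, 0.638% and 2.87% higher. For lower calls the share was highest in Tfh subcluster 7 and lowest in Tfh subcluster 0, and S100a4 was called in both.

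**Figure D5:**
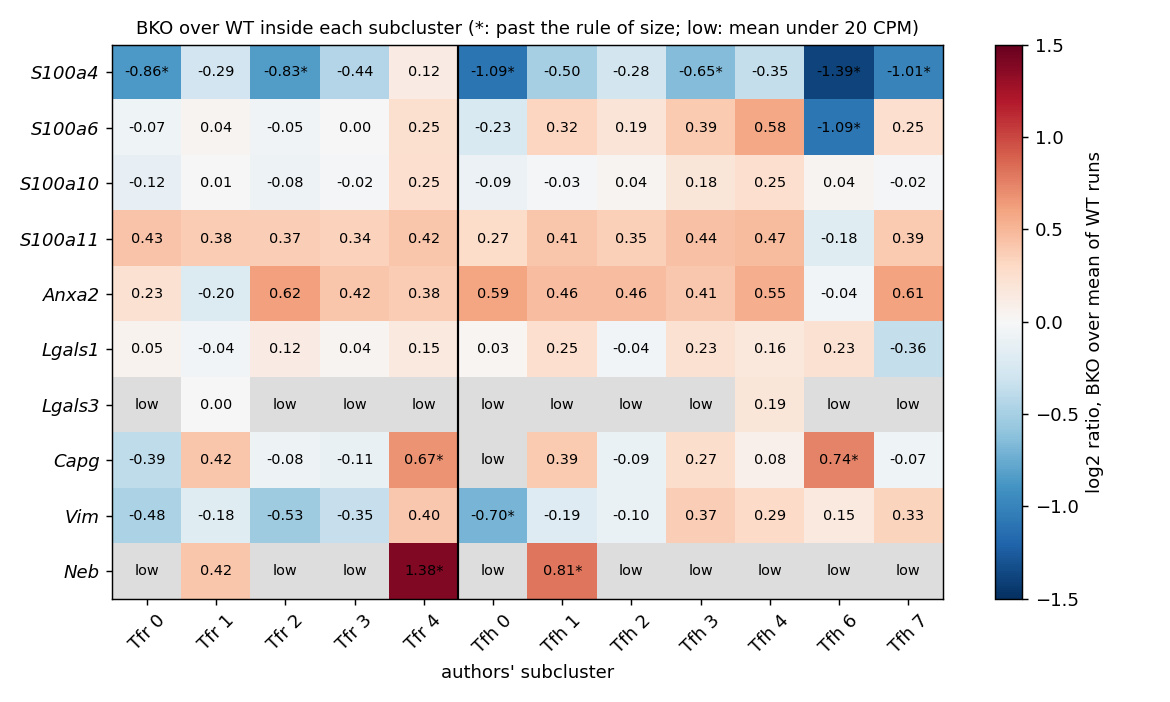
Log2 ratio of BKO over the mean of the WT runs for each member (rows) inside each subcluster (columns, Tfr left of the line), with an asterisk where the rule of size was passed and grey where the mean was under 20 CPM. The S100a4 row is blue in 11 of 12 subclusters, from -1.39 to 0.12, and the S100a11 row is red in 11 of 12, up to 0.47.

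Shares of cells with S100a4 in Tfh cells, Neb and Capg in Tfr cells and S100a11 in both classes differed in the same directions as the summed levels. With each cell thinned to 2500 UMIs, which drops cells under that depth (9 BKO, 36 WT run 1 and 2 WT run 2 Tfr cells, and 66, 194 and 56 Tfh cells in that order), S100a4 was detected in 19.6% of BKO Tfh cells (exact binomial interval 18.7% to 20.6%), against 30.3% (28.7% to 31.8%) and 29.2% (27.8% to 30.7%). The unthinned shares were 27.9%, 35.5% and 42.1%. In Tfr cells, unlike its summed level, the thinned share of S100a4 in BKO (36.6%) lay between those of WT run 1 (37.7%) and WT run 2 (34.9%). Neb was detected in 15.3% of BKO Tfr cells, against 7.25% and 7.60% (unthinned 26.8%, 11.5% and 14.8%), and Capg in 42.5%, against 29.9% and 28.8% (unthinned 63.9%, 48.4% and 55.4%). S100a11 was detected in 82.8% of BKO Tfr cells, against 69.9% and 72.1% (unthinned 96.0%, 86.4% and 94.0%), and in 84.6% of BKO Tfh cells, against 74.9% and 76.4% (unthinned 96.3%, 87.5% and 94.1%). Free RNA could add to such shares. In BKO barcodes with 1 to 50 UMIs, taken as free RNA, the members stood at 0.71 (Neb) to 1.48 (Capg) times their level in BKO cells, S100a4 at 385 CPM, against 405 CPM in cells. The WT matrices hold no such barcodes and the tables no cell type that lacks these genes, so its part in the shares was not tested.

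In thinned cells at least 5 of the 10 members were detected in 43.8% of BKO Tfr cells, against 30.7% and 28.0% of WT Tfr cells, and in 20.2% of BKO Tfh cells, against 20.7% and 19.2%. Inside Tfr subcluster 1 the shares were close, 78.2% in BKO, against 79.4% and 74.2%, and in Tfh subcluster 4 they were 66.3%, against 61.8% and 60.7%. The share that independent detection would give was not computed. Cell by cell, Pearson's r of the 45 pairs of members, taken as the median over 6 sets of cells (class and library), ran from -0.01 for Anxa2 with Neb to 0.48 for S100a4 with S100a6, with a median pair at 0.16, as a description over cells that share a library and thinned depth.

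Across the 36 combinations of library and subcluster, S100a4 was most like S100a6 among the members (r = 0.92), S100a10 like Vim (0.96), Lgals1 like S100a10 (0.93) and Neb like S100a4 (0.75). S100a11 followed the mean of the other 9 members least closely, at 0.69. Among 6108 genes outside the list, those most like the members' mean were S100a13 (0.95), a further S100 gene of the chromosome 3 cluster, Crip1 (0.90), Prr13 (0.88), Rac1 (0.87), Flna (0.87), Tagln2 (0.87), Pycard (0.85), Gimap4 (0.85), Ech1 (0.84) and Itgb7 (0.84). The combinations share cells between WT runs and clusters made from these genes, so these values are descriptions.

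Of 16 S100 genes 5 passed the minimum, and besides the S100a4 call in Tfh cells 0 were called in either class. Of 12 annexins 5 passed, and 1 was called, Anxa6, a membrane-binding annexin, which stood at 53.7 CPM in BKO Tfh cells, against 98.5 and 98.1 CPM (-0.87). In the same cells Anxa2 stood at 119 CPM, against 85.0 and 83.6 CPM. Anxa5, a further annexin, stood at 76.3 CPM in BKO Tfr cells, against 61.3 and 60.4 CPM (0.33). Of 9 genes of the galectin list in the files 4 passed and 0 were called. Among the 4 is Lgals3bp, which encodes a protein that binds a galectin and is not itself one. Lgals9 stood at 76.9 CPM in BKO Tfr cells, against 84.7 and 83.5 CPM (-0.13). Of 10 genes of the gelsolin family and cappers 6 passed, and Capg in Tfr cells was the 1 called, while the actin cappers Capzb (0.10) and Capza1 (-0.21) were not. Of 4 nebulin genes, Nebl, which encodes the relative nebulette, was called lower in both classes, opposite to Neb in Tfr cells. It stood at 14.5 CPM in BKO Tfr cells, against 30.1 and 27.2 CPM, and at 13.5 CPM in BKO Tfh cells, against 40.2 and 41.6 CPM. Its BKO level was under 20 CPM in both classes, and it passed the minimum through WT. Lasp1 (-0.09 in Tfr cells) was not called. Of 11 genes of intermediate filaments and their linkers 5 passed and 0 were called. Their medians, Vim and the linker Macf1 included, were -0.40 in Tfr and -0.50 in Tfh cells. Vim stood at 0.15 and 0.08, and Macf1 at -0.57 and -0.50. The fall of ratios with intron length over all genes, given below, was not taken off these values.

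Of 19 genes commonly listed with the members in effector and memory T cells, 16 passed in Tfr cells, with 2 called higher and 3 lower. In Tfh cells 15 passed, with 1 higher and 1 lower. These counts and those of the lists above stand beside the shares of all genes called. The shares were 0.887% higher and 2.4% lower in Tfr cells, and 0.396% higher and 2.45% lower in Tfh cells. Cxcr3, a chemokine receptor of effector cells, stood at 58.9 CPM in BKO Tfr cells, against 31.8 and 30.6 CPM, and at 82.5 CPM in BKO Tfh cells, against 51.3 and 50.2 CPM. Prdm1 stood at 55.9 CPM in BKO Tfr cells, against 22.9 and 23.1 CPM. The adhesion genes Itgb1 (-0.72), Itga4 (-0.67) and Cd44 (-0.67) were called lower in Tfr cells, and Esyt1, which encodes a membrane tether, in Tfh cells (-0.70). Esyt1 stood at 19.9 CPM in BKO Tfh cells, against 32.4 and 32.7 CPM, and passed the minimum through WT. Maf, which encodes a factor of Tfh cells, stood at 1479 CPM in BKO Tfr cells, against 901 and 1035 CPM (0.61), and Crip1, a gene often high with S100a4, at 455 CPM, against 410 and 390 CPM (0.19), and neither was called. The medians were -0.03 in Tfr and -0.14 in Tfh cells, close to those of all genes.

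Markers of other cells were low where defining. S100a8 and S100a9, S100 genes of neutrophils and monocytes, were at 0 in Tfr cells and at most 0.07 CPM in Tfh cells. The myeloid list of 11 genes summed to 272 CPM in BKO Tfr cells, against 219 and 214 CPM, and to 135 CPM in BKO Tfh cells, against 132 and 123 CPM, with Lyz2 at most 2.19 CPM and most of the sum from Cst3 and Cd74. The B cell list of 6 summed to between 12.6 and 15.9 CPM over classes and libraries. Leaving out cells with a UMI of either list dropped 76.4% of BKO, 63.6% of WT run 1 and 77.2% of WT run 2 Tfr cells, so it is not a removal of other cell types alone. In the 482, 516 and 330 cells that remained Neb had a ratio of 1.34 and Capg 0.51, not called. Plasma cell (5 genes), erythroid (5) and stromal (6) lists summed to 35.0 to 58.8, 3.74 to 8.08 and 119 to 231 CPM, the last mostly Pecam1, which was lower in BKO in both classes.

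Counts of BKO and WT came from different Cell Ranger versions, and the log2 ratio fell with intron length over all genes, with medians of 0.17 (Tfh) and 0.18 (Tfr) under 3 kb of intron and -0.36 in both classes over 100 kb. S100a4 has 1.69 kb of intron and Neb 215 kb, and the calls of S100a4 in Tfh and Neb in Tfr cells lay opposite to this trend. The trend at the intron length of S100a11 was 0.14 in both classes, of Lgals1 0.16 (Tfh) and 0.18 (Tfr), and of Vim 0.13 and 0.16. These have the sign of the members' ratios. For Anxa2 it was -0.16 and -0.17, opposite to its ratios. What part of any ratio the trend makes up was not tested. With the trend taken off, Anxa2 was called higher in both classes beside S100a4 in Tfh and Neb in Tfr cells, and Capg was not called. Neb overlaps a gene on the other strand, Gm13522, with 271 UMIs in all cells, against 3143 of Neb, and Anxa2 overlaps Gm16144, with 3 UMIs, against 12430 of Anxa2. No label states whether counting used strand.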

How the data were processed

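Cells sorted from spleen were captured with 10x Chromium 3′ kits, per the labels' protocols. Each sample's deposited matrix holds raw counts of UMIs, made with Cell Ranger on mm10 per the submitters' processing notes, by version 7.0.1 for WT and 4 for BKO per the file headers. The authors also deposited tables of Tfh and Tfr cells with subcluster numbers and UMI totals, from which class and subcluster were taken by barcode. The UMI totals in the table of WT run 2 are 0.659 of those in its matrix, and the matrix was used. Between the WT runs 10.4% of shared annotated cells changed class. No label states a doublet treatment, and no doublets were called here.

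Counts were summed per library, class and subcluster (subclusters of at least 50 cells in each sample) and scaled to CPM. The design treated the WT samples as possible replicates, and because they hold the same cells no test was fitted. The members, gene lists, markers and alternatives were chosen with earlier results of these data known. Ccl5, Mki67, Nkg7, Pecam1, Lyz2, Cst3, Cd74 and S100a5 were named after their values were seen. The other genes are the members, the called genes of each list with the 2 of highest mean CPM besides, 5 context genes, and the 10 genes of highest correlation with the members' mean over log2(CPM + 0.5) centred by library and class. Exact Poisson and Clopper-Pearson intervals are at 95%. Thinning to 2500 UMIs used a fixed seed. Gene models were GENCODE on GRCm38. Python 3.11.15, numpy 2.4.6, scipy 1.17.1, pandas 2.3.3 and, for TMM sizes, edgeR 4.0.16 in R 4.3.3 were used. Alternatives changed library size, minimum, size of the call, WT run, cells, makeup, weighting and pseudocount, and, after seeing the data, the intron trend, the makeup over subclusters of at least 50 cells, Tfh subcluster 5, Tfr subcluster 6 and Tfh cells with a Foxp3 UMI.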

Additional observations from a re-analysis of the deposited data

Results flagged for a closer look

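For 3 members BKO lay on opposite sides of both WT runs in Tfr and Tfh cells, and the difference between the classes was not tested. S100a4 was higher in BKO Tfr cells and lower in BKO Tfh cells, with log2 ratios 0.96 apart. Neb was higher in BKO Tfr cells and lower in BKO Tfh cells, 1.79 apart, and Lgals3 likewise, 0.79 apart. In Tfh cells Neb and Lgals3 were under the minimum of 20 CPM, and Lgals3 was under it in Tfr cells too. With BKO at the WT shares of subclusters S100a4 was lower in both classes, at -0.43 in Tfr and -0.36 in Tfh cells. At those shares Neb was at 0.40 in Tfr and -0.15 in Tfh cells, and Lgals3 at -0.0096 in Tfr and 0.75 in Tfh cells, the opposite order of the classes. In Tfr cells Lgals3 then lay between the WT runs. The Tfh values of S100a4, Neb and Lgals3 at those shares rest in part on 11 BKO cells of Tfh subcluster 5. These cells held 0% of the Neb UMIs of BKO Tfh cells. The WT cells of that subcluster held 38.6% (WT run 1) and 43.6% (WT run 2) of the Neb UMIs of WT Tfh cells. Over subclusters of at least 50 cells the WT shares gave Neb 0.40 in Tfr and 0.58 in Tfh cells, and Lgals3 a smaller value in Tfh cells.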

How the results depend on the processing

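With TMM library sizes 4 members were called in Tfr cells (S100a6, S100a11, Capg and Neb higher) and 3 in Tfh cells (S100a11 and Anxa2 higher, S100a4 lower), in place of 2 and 1. The intron trend, the weighting over subclusters of at least 50 cells and the omissions of Tfh subcluster 5 and Tfr subcluster 6 were chosen after seeing the data. TMM raised the median of all genes by 0.16 in Tfh and 0.11 in Tfr cells, and the share of calls that were higher was 43.2% in place of 13.9% in Tfh and 58.4% in place of 27.0% in Tfr cells. With the intron trend taken off that share was 27.7% in Tfh and 61.8% in Tfr cells, and 2 members were called in Tfh cells, Anxa2 besides S100a4. With a size of 2 times 1 member was called in Tfr cells (Neb), 0 in Tfh cells and 3 in subclusters, in place of 12. With BKO at the WT shares 0 were called in either class, also over subclusters of at least 50 cells, and without Tfh subcluster 5 0 were called in Tfh cells. Without cells that had a myeloid or B cell marker UMI 1 was called in Tfr cells (Neb).

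In Tfr cells S100a11 and Neb were called with WT cells of the same class in both runs, S100a6, S100a11 and Neb without Tfr subcluster 6, and S100a11 besides Capg and Neb without variable gene classes in the library size. Leaving out each WT run gave 1 to 1 calls in Tfh cells, 3 to 3 in Tfr cells (S100a6 added without WT run 1, S100a11 without WT run 2), 2 to 2 for Tfr against Tfh and 14 to 15 in subclusters. Capg and Neb were called in Tfr against Tfh cells under each alternative run. S100a4 was below 0 in at least 11 of 12 subclusters under each alternative run inside subclusters. Of 270 values of member ratios under alternatives 129 moved by more than their counting interval, none with a called value reversing, and the 60 shares of cells moved without thinning. No paired analysis was possible because BKO has 1 library and both WT runs sampled 1 set of cells. Over all genes 58 were called higher and 157 lower in Tfr cells, and 26 and 161 in Tfh cells. With no minimum these were 2172 and 3364, and 2207 and 3753, at 2 times 8 and 14, and 2 and 41, at the WT shares 24 and 47, and 21 and 57, at those over subclusters of at least 50 cells 23 and 48, and 20 and 42, and with the intron trend taken off 76 and 47, and 33 and 86. With 1 BKO library, differences between mice or Cell Ranger versions cannot be told apart from the genotype.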
